A study of Mus musculus with 6 samples.

Results

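The genes described here encode the SOX transcription factors of cartilage cells and the proteins of the cartilage matrix that those cells make, measured in mouse bone marrow cells under osteogenic induction. The set has 7 genes chosen by name: Sox9, Sox5, Sox6, Acan, Prg4, Comp and Hapln1. Of these, 6 had a row in the table of 19353 genes, and Hapln1, which encodes the link protein of aggrecan, is not analysed here. The cells were wild-type (WT) primary mesenchymal stem cells purified from bone marrow, and both groups were induced towards bone with β-glycerophosphate at 10 mM, ascorbic acid at 50 µM and dexamethasone at 100 nM. The MCH group (3 libraries) was given melanin-concentrating hormone at 0.5 µM, a neuropeptide of hypothalamic neurons, and the Control group (3 libraries) had the same medium without it. The sample titles give day 9 and the series design gives day 8. The labels give neither the age nor the number of the animals, and they do not say whether each library is a culture or animal of its own, so the spread that p-values measure may be technical.

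SOX9 is the transcription factor without which mesenchymal cells do not become chondrocytes, and it binds DNA through a high-mobility-group domain. SOX5 and SOX6, which lack an activation domain of their own, bind beside SOX9 at cartilage enhancers and raise its activity there. Among the genes these factors act on are those for aggrecan, the large proteoglycan that holds water in cartilage, and for other proteins of the matrix. Bone marrow stromal progenitors can form cartilage as well as bone and fat, and SOX9 is also present in progenitors before they commit to bone.

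Libraries held 16521980 to 18803949 counted reads. Along the leading principal component (log CPM), MCH replicate 1 lay at -10.9, nearer to the Control libraries (18.9 to 25.5) than MCH replicates 2 (-32.3) and 3 (-24.8). MCH replicate 3 had the highest summed count over 10 macrophage markers, 1416, within a range of 812 to 1416 in MCH against 654 to 788 in Control. Among the MCH libraries, each of the 10 markers was highest in replicate 3. Cd68 held most of the summed counts (690 to 934 in MCH, 549 to 606 in Control). In MCH replicates 1, 2 and 3, Adgre1 had 4, 2 and 50 counts, C1qb 1, 0 and 31, C1qc 2, 4 and 27, and Ctss 7, 9 and 92. In Control replicates 1, 2 and 3, Adgre1 had 6, 11 and 0 counts, C1qb 0, 9 and 0, C1qc 1, 1 and 0, and Ctss 5, 23 and 10. Ptprc, the pan-leukocyte marker, stayed at 0 to 2 counts in MCH and 0 to 1 in Control. Changes are given as log2 fold changes of MCH minus Control ± SE from edgeR's quasi-likelihood test, with Benjamini-Hochberg adjusted p-values over 13662 tested genes and a threshold of 0.05.

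Sox9, Sox5, Acan and Prg4 were lower with MCH, by 23.4% for Sox9, 42.4% for Sox5, 37.9% for Acan and 49.9% for Prg4. These 4 genes were the ones of the 6 that passed the filter on low counts, and 0 rose (0 also at an unadjusted p under 0.05 and with DESeq2). Among all genes tested, 5.40% were called lower, 3.64% higher and 9.04% either way. The 4 genes had MCH libraries that were all below the Control libraries in CPM (counts scaled to the size of the library), as had 16.6% of all genes tested. Sox6 and Comp had at most 12 counts in any library. Levels of single genes are given in the authors' FPKM, fragments per kilobase of gene scaled to the depth of the library. In these bulk samples, fewer cells of a type and less RNA per cell cannot be told apart.

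**Figure D1:**
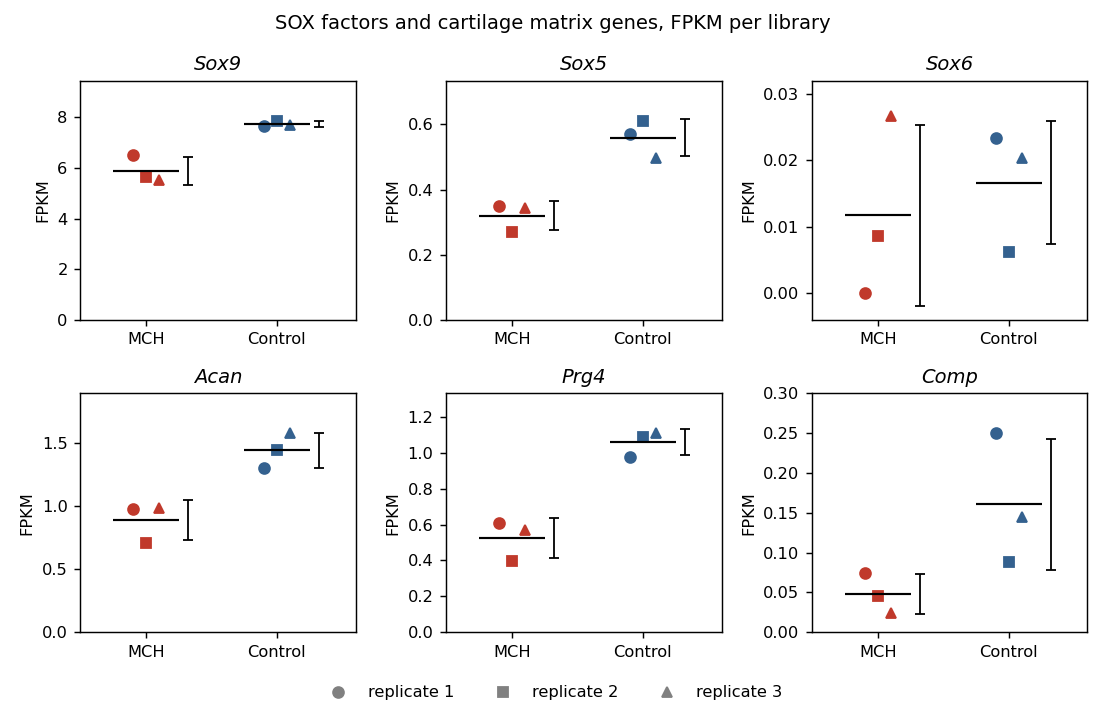
FPKM of the 6 measured genes in each library, with MCH left of Control, replicates by symbol, horizontal lines for group means and bars for ± 1 SD (the Sox6 bar in MCH reaches below 0). The groups are separate in all panels but that of Sox6, whose MCH libraries run from 0 to 0.0266 FPKM.

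The label of these genes as chondrocyte genes was set against defining markers of that cell type. Of 11 chondrocyte markers, 5 had a row, and their summed counts were 209 to 281 in MCH and 186 to 241 in Control. Col2a1, the main collagen of cartilage, had 4 to 11 counts in MCH libraries and 1 to 9 in Control libraries. Col9a2, a chain of the collagen on the surface of cartilage fibrils, had 0 to 3 counts in MCH and 1 to 3 in Control, and Cnmd, the cartilage glycoprotein chondromodulin, had 0 to 4 in MCH and 1 to 6 in Control. The 2 tested markers, Col9a3 (38 to 54 counts in MCH, 38 to 44 in Control) and Col11a2 (147 to 220 in MCH, 142 to 190 in Control), did not pass the test. Col10a1, the collagen of hypertrophic cartilage, had 0 to 1 count in MCH and 0 to 2 in Control. Col2a1, Col9a2, Cnmd and Col10a1 were thus near 0 in both groups while Col9a3 and Col11a2 were detected, and the genes are called SOX and cartilage matrix genes below, not chondrocyte genes.

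**Figure D2:**
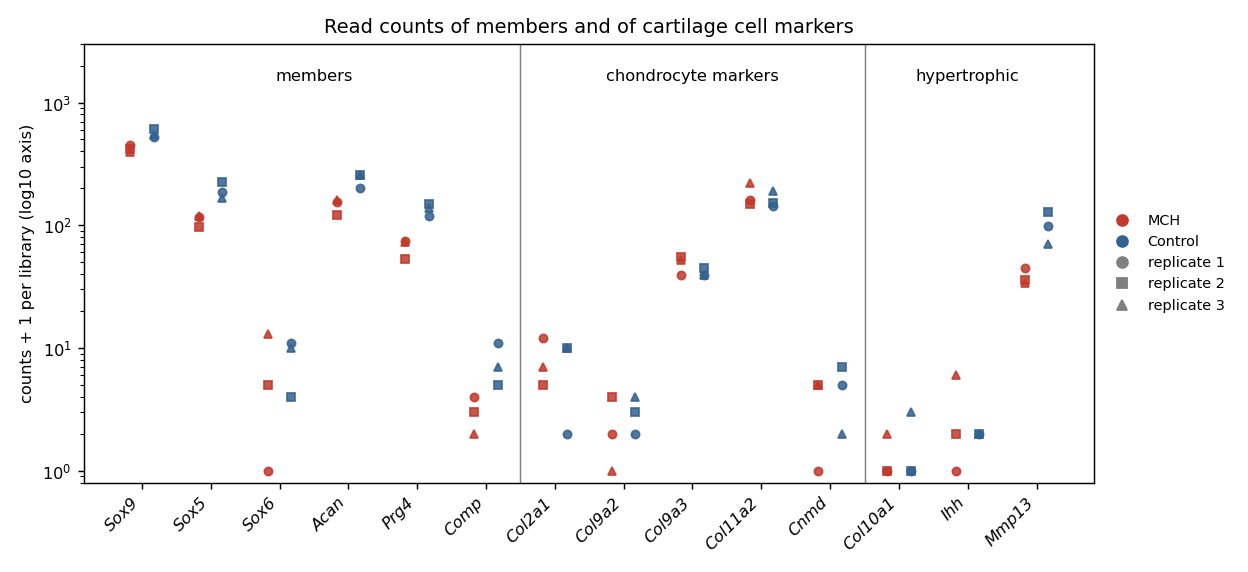
Read counts plus 1 per library on a log10 axis for the 6 genes, for chondrocyte markers and for markers of hypertrophic chondrocytes, with MCH left of Control. Sox9 stands at 397 counts or more in every library, while Col2a1, Col9a2, Cnmd, Col10a1 and Ihh stay at 11 counts or fewer.

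Sox9 (ENSMUSG00000000567) lies on chromosome 11 from 112782224 to 112787760 on the plus strand of GRCm38, where GENCODE M21 has 1 transcript with 3 exons. Its level was 6.51, 5.63 and 5.51 FPKM in MCH replicates 1, 2 and 3, against 7.66, 7.86 and 7.69 FPKM in Control replicates 1, 2 and 3. All MCH libraries were below all Control libraries, MCH replicate 1 lay closest to Control, and the Control libraries were close together. The counts behind these levels were 397 to 451 in MCH and 523 to 611 in Control. The log2 fold change was -0.39 ± 0.08 (edgeR, Benjamini-Hochberg adjusted p = 0.0307). The call was kept without MCH replicate 1 (adjusted p = 0.0214) and lost without any other single library, with adjusted p of 0.0970 without MCH replicate 2, 0.125 without MCH replicate 3, 0.0744 without Control replicate 1, 0.0945 without Control replicate 2 and 0.0999 without Control replicate 3.

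Sox5 (ENSMUSG00000041540) covers 953553 bases of chromosome 6, from 143828425 to 144781977 on the minus strand, with 14 annotated transcripts. It had 115, 96 and 117 counts in MCH replicates 1, 2 and 3, which is 0.349, 0.270 and 0.342 FPKM. In Control replicates 1, 2 and 3 it had 185, 226 and 167 counts, which is 0.570, 0.611 and 0.497 FPKM. The highest MCH library was well below the lowest Control library. The log2 fold change was -0.80 ± 0.15 (edgeR, Benjamini-Hochberg adjusted p = 0.0190). It was no longer called without MCH replicate 2 (adjusted p = 0.0602), MCH replicate 3 (0.0609) or Control replicate 2 (0.0719), and with limma on log2(FPKM + 0.1) (-0.65, adjusted p = 0.0509). On log2(FPKM + 1), which understates changes of genes at such low levels, its value was -0.24. Antisense transcripts lie in the locus: Sox5os1 shares 1330 exon bases with Sox5 and had no value here, and Sox5os3 had 0 to 4 counts. The strand setting of the counting is not stated, so reads of Sox5 and of an antisense partner that shares exons with it cannot be told apart.

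Sox6 (ENSMUSG00000051910), the closest relative of Sox5, covers 567925 bases of chromosome 7, from 115470872 to 116038796 on the minus strand. It had 0, 4 and 12 counts in MCH replicates 1, 2 and 3, and 10, 3 and 9 counts in Control replicates 1, 2 and 3. The groups overlap, with the lowest and the highest library both in MCH, and the filter on low counts left the gene out. With no filter, its log2 fold change was -0.46 ± 0.94 (edgeR adjusted p = 0.834). Summed over libraries it had 16 counts in MCH and 22 in Control, a ratio of 0.730 relative to library totals with a 95% counting interval of 0.358 to 1.45. A difference was not detectable at this depth.

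Among the other 16 SOX family genes listed, 9 had a row, 4 were tested and 0 were called in either direction by edgeR, DESeq2 or limma-voom (3 at an unadjusted p under 0.05 in edgeR, 2 lower and 1 higher). Sox4, which acts in early skeletal progenitors, was at 22.5 ± 2.66 FPKM in MCH and 27.4 ± 1.59 FPKM in Control (SD, n = 3 each; log2 fold change -0.28 ± 0.08, edgeR adjusted p = 0.0744), and it passed without MCH replicate 1 (adjusted p = 0.0187). Sox12, a close relative of Sox4, had 754, 902 and 939 counts in MCH replicates 1, 2 and 3, against 827, 141 and 849 in Control replicates 1, 2 and 3, so Control replicate 2 alone stood apart (log2 fold change 0.48 ± 0.74, and -0.005 without that library).

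Of 34 genes listed as regulators or partners of SOX9, 25 were tested, 2 fell and 0 rose (0 also with DESeq2, and 1 at an unadjusted p under 0.05). Among all genes tested, 5.40% fell and 3.64% rose. The median log2 fold change of the list was -0.20 against 0.002 over all genes tested, and a fall of the list as a whole was not tested. Wwp2, a ubiquitin ligase that binds SOX9 in mouse cartilage, was at 19.9, 20.0 and 19.8 FPKM in MCH replicates 1, 2 and 3, against 30.5, 29.7 and 32.4 FPKM in Control replicates 1, 2 and 3 (log2 fold change -0.62 ± 0.06, edgeR adjusted p = 0.00178). Foxc1, a forkhead factor of skeletal mesenchyme, was at 10.9 ± 0.105 FPKM in MCH and 16.4 ± 1.04 FPKM in Control (SD, n = 3 each; log2 fold change -0.58 ± 0.08, edgeR adjusted p = 0.00564). Both calls were kept in all 6 fits with 1 library left out, and that of Foxc1 was lost with the replicate number as a block (edgeR adjusted p = 0.0629). The most abundant regulators that did not pass were Bmpr1a, a BMP receptor (11.6 ± 1.31 FPKM in MCH, 11.7 ± 1.55 FPKM in Control), and Zfp219, a zinc finger partner of SOX9 (4.73 ± 0.386 FPKM in MCH, 4.87 ± 0.657 FPKM in Control).

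Acan (ENSMUSG00000030607), which encodes aggrecan, lies on chromosome 7 from 79053483 to 79115099 on the plus strand. It had 154, 120 and 161 counts in MCH replicates 1, 2 and 3, which is 0.980, 0.707 and 0.985 FPKM. In Control replicates 1, 2 and 3 it had 201, 256 and 254 counts, which is 1.30, 1.45 and 1.58 FPKM. MCH replicate 2 was the lowest library and no MCH library reached the lowest Control library. The log2 fold change was -0.69 ± 0.15 (edgeR, Benjamini-Hochberg adjusted p = 0.0346). The call was kept without MCH replicate 1 (adjusted p = 0.0393) and lost without MCH replicate 2 (0.0826), MCH replicate 3 (0.0786), Control replicate 1 (0.0537), Control replicate 2 (0.0998) or Control replicate 3 (0.127), and with limma on log2(FPKM + 0.1) (-0.65, adjusted p = 0.0606). Its value on log2(FPKM + 1) was -0.37.

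Prg4 (ENSMUSG00000006014) encodes lubricin, the lubricating glycoprotein of joint surfaces and synovial fluid, and lies on chromosome 1 from 150449412 to 150466165 on the minus strand. It had 74, 52 and 72 counts in MCH replicates 1, 2 and 3, which is 0.610, 0.397 and 0.571 FPKM. In Control replicates 1, 2 and 3 it had 117, 148 and 137 counts, which is 0.978, 1.09 and 1.11 FPKM. The groups are far apart relative to their spread, with MCH replicate 2 again the lowest. The fitted fold of MCH over Control was 0.501, with an SE of 0.18 on the log2 scale (edgeR, Benjamini-Hochberg adjusted p = 0.0171), the largest fall among the 4 tested genes. It was no longer called when 1 of 3 libraries was left out: MCH replicate 3 (adjusted p = 0.0561), Control replicate 2 (0.0650) and Control replicate 3 (0.0747). Its value on log2(FPKM + 1) was -0.43. Prg4 shares 204 exon bases with Tpr, a nuclear pore gene on the other strand that had 1973 to 2321 counts in MCH and 1994 to 2609 in Control and did not pass the test (log2 fold change -0.10 ± 0.09, edgeR adjusted p = 0.526), and how many reads of either were counted for the other was not tested.

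Comp (ENSMUSG00000031849), cartilage oligomeric matrix protein, is a thrombospondin that bridges collagen fibrils, and lies on chromosome 8 from 70373548 to 70382065 on the plus strand. It had 3, 2 and 1 counts in MCH replicates 1, 2 and 3, and 10, 4 and 6 counts in Control replicates 1, 2 and 3. The counts of the groups do not overlap, but the filter on low counts left the gene out. With no filter, its log2 fold change was -1.68 ± 0.84 (edgeR adjusted p = 0.280), which did not pass. Summed counts were 6 in MCH and 20 in Control, a ratio of 0.301 relative to library totals with a 95% counting interval of 0.0989 to 0.777, which covers counting error and not the spread between libraries.

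**Figure D3:**
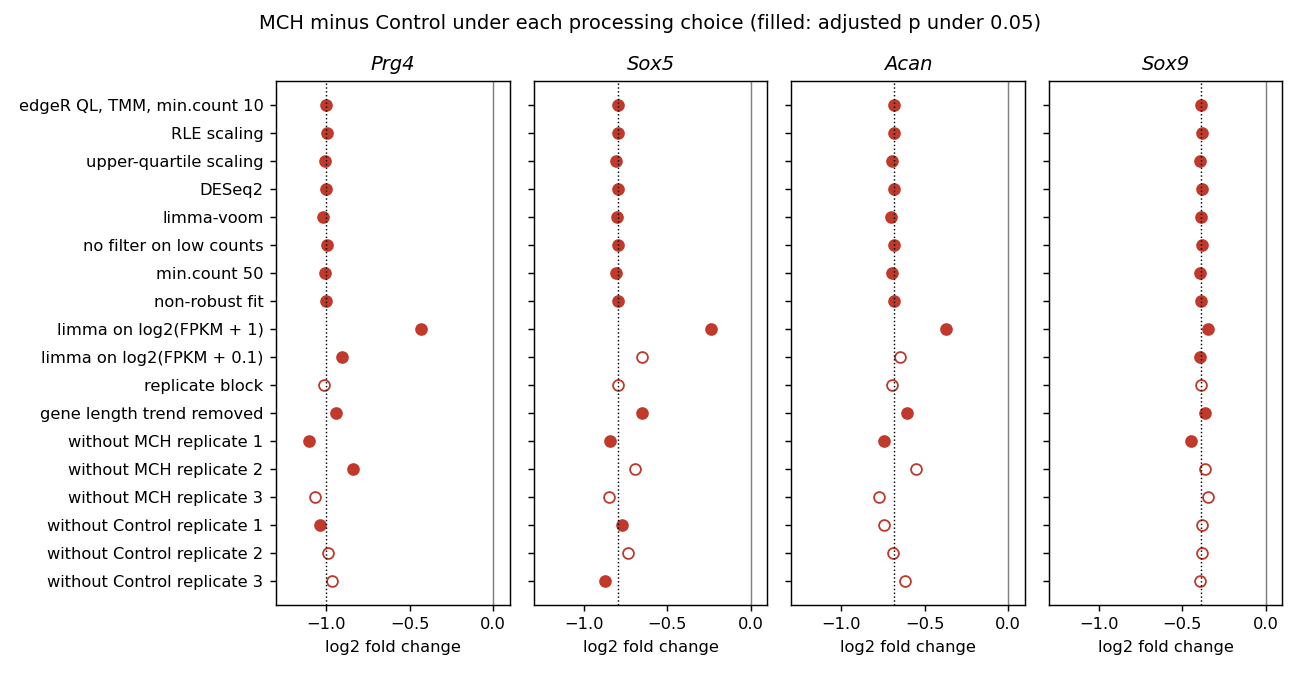
Log2 fold change of MCH minus Control for Sox9, Sox5, Acan and Prg4 in the fit reported and in each other setting or with 1 library left out, with called values marked apart from uncalled ones. Every value lies below 0, and the calls of Sox9 and Acan were kept in 1 of the 6 fits with a library left out and those of Sox5 and Prg4 in 3 of 6.

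On the authors' FPKM scale, which divides by gene length, Sox9 was the most abundant of the set in every library, followed in group means by Acan, Prg4, Sox5, Comp and Sox6. Mean levels were 5.88 ± 0.546 FPKM in MCH and 7.73 ± 0.108 FPKM in Control for Sox9, and 0.891 ± 0.159 FPKM in MCH and 1.44 ± 0.143 FPKM in Control for Acan (SD, n = 3 each). Prg4 averaged 0.526 ± 0.113 FPKM in MCH and 1.06 ± 0.0691 FPKM in Control, and Sox5 0.320 ± 0.0437 FPKM in MCH and 0.559 ± 0.0581 FPKM in Control (SD, n = 3 each). Comp and Sox6 overlap in MCH, at 0.0237 to 0.0738 FPKM for Comp and 0 to 0.0266 FPKM for Sox6. The lengths implied by the authors' FPKM exceed the merged exons of GENCODE M21 for Sox5 (19655 against 14376 bases), Sox6 (25852 against 14832), Acan (9381 against 7469) and Prg4 (7238 against 4280). With the M21 exon length, Prg4 was at 0.672 to 1.03 FPKM in MCH and Acan at 0.888 to 1.24 FPKM in MCH, and in Control they were at 1.65 to 1.87 FPKM (Prg4) and 1.63 to 1.99 FPKM (Acan), so the ranges of these neighbours overlap in both groups. Within a library, Acan stayed above Prg4 in all 3 MCH libraries with the M21 length, while in Control the genes were at 1.63 and 1.65 FPKM in replicate 1, 1.82 and 1.84 in replicate 2 and 1.99 and 1.87 in replicate 3, Acan first. The order of Sox9 above the rest and of Sox5 below Acan and Prg4 held with both lengths.

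Relative to each other, the FPKM levels of the 4 tested genes were compared in 5 ratios, with exact two-sided permutation tests whose smallest possible p is 0.1. The ratio of Sox9 to Prg4 was not computed, so the adjusted values do not cover it. The Sox9 to Sox5 ratio was 18.6, 20.8 and 16.1 in MCH replicates 1, 2 and 3, against 13.4, 12.9 and 15.5 in Control replicates 1, 2 and 3 (exact permutation p = 0.1, adjusted over the 5 ratios 0.25). The Acan to Prg4 ratio was 1.61, 1.78 and 1.73 in MCH, against 1.33, 1.33 and 1.43 in Control (exact permutation p = 0.1, adjusted 0.25). Of the 5 ratios, these 2 were higher in all MCH libraries than in all Control libraries. For Sox9 to Acan (adjusted exact permutation p = 0.25), Prg4 to Sox5 (0.25) and Acan to Sox5 (0.6) the libraries of the groups overlap.

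Promoter sequence is shown for Sox5 and Acan, 1 SOX factor and 1 matrix gene that both fell and for which RefSeq (GRCm38.p6) gave a window in the table used. Each line holds the 250 bases before a RefSeq start, 5′ to 3′ on the gene's strand, at chr6:143947107-143947356 (minus) for Sox5 and at chr7:79052976-79053225 (plus) for Acan. Capitals mark the motifs ACAAT and ACAAAG, core sequences of SOX binding, searched on both strands, where they cannot overlap at the same position.
Sox5: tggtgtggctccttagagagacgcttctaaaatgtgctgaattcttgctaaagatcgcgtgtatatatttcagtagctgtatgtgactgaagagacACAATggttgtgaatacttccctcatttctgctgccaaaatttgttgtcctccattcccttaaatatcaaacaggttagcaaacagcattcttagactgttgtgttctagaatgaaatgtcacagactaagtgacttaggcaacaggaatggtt
Acan: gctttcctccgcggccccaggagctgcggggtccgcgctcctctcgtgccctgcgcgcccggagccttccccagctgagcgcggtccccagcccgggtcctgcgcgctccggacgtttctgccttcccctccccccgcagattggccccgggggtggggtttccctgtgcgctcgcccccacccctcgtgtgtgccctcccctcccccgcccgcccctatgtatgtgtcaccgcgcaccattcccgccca
The Sox5 window lies inside the long Sox5 locus, before an internal start, and holds 1 ACAAT in the orientation printed, 154 bases before that start. The Acan window ends at a RefSeq start that lies upstream of the GENCODE M21 start of the gene, holds neither motif and is rich in G and C (74.4%, against 39.6% in the Sox5 window and a median of 52.4% over all windows). Of 32851 windows of the same length, 27.7% hold ACAAT, 16.5% ACAAAG and 38.8% either one. A match describes these letters alone.

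Other genes of the cartilage matrix were followed as collagens and as proteins outside the collagens. Beside the counts called in these and the following lists stand the shares over all genes tested, 5.40% lower and 3.64% higher. Of 8 cartilage collagens, 4 were tested and 0 called by edgeR or DESeq2 (0 at an unadjusted p under 0.05), with a median log2 fold change of 0.07. The most abundant were Col11a1, at 2.13 ± 0.790 FPKM in MCH and 2.77 ± 0.735 FPKM in Control, and Col27a1, at 1.95 ± 0.141 FPKM in MCH and 1.98 ± 0.172 FPKM in Control (SD, n = 3 each). Of 20 cartilage matrix proteins outside the collagens, 6 were tested, 4 fell and 0 rose (0 also with DESeq2, and 1 at an unadjusted p under 0.05), with a median log2 fold change of -0.79. Mgp, matrix Gla protein, an inhibitor of calcification made by cartilage and vessel cells, was at 18.8 ± 1.38 FPKM in MCH and 101 ± 15.7 FPKM in Control (SD, n = 3 each; log2 fold change -2.41 ± 0.14, edgeR adjusted p = 0.000191). Prelp and Fmod, small leucine-rich proteoglycans that bind collagen, fell, Prelp by 0.88 ± 0.10 on the log2 scale (edgeR adjusted p = 0.00305) and Fmod by 1.22 ± 0.15 (edgeR adjusted p = 0.00380). Matn2, a matrilin of connective tissue, was at 2.70 ± 0.187 FPKM in MCH and 4.43 ± 0.356 FPKM in Control (SD, n = 3 each; edgeR adjusted p = 0.00786). These 4 calls were kept in all 6 fits with 1 library left out, and that of Matn2 was lost with the replicate number as a block (edgeR adjusted p = 0.0734). Chadl, a chondroadherin-like protein, did not pass (0.365 ± 0.0234 FPKM in MCH, 0.186 ± 0.0750 FPKM in Control, edgeR adjusted p = 0.101). Scrg1, with 3 to 6 counts in MCH and 0 to 3 in Control, was left out by the filter on low counts.

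Aggrecan is anchored in cartilage by binding hyaluronan, and 15 genes for its relatives, link proteins and hyaluronan turnover were followed, of which 13 were tested, 3 fell and 0 rose (median log2 fold change -0.20; 0 rose with DESeq2 and 1 at an unadjusted p under 0.05). Has2, the main hyaluronan synthase of mesenchymal cells, was at 2.59, 2.31 and 2.49 FPKM in MCH replicates 1, 2 and 3, against 6.89, 7.64 and 6.21 FPKM in Control replicates 1, 2 and 3. Its log2 fold change was -1.48 ± 0.10 (edgeR adjusted p = 0.000466), and the call was kept in all 6 fits with 1 library left out. Vcan, versican, the aggrecan relative of loose connective tissue, was at 9.69 ± 1.30 FPKM in MCH and 14.0 ± 1.39 FPKM in Control (SD, n = 3 each; log2 fold change -0.52 ± 0.10, edgeR adjusted p = 0.0192). Hapln4, a link protein best known from brain, was at 2.22 ± 0.0718 FPKM in MCH and 3.21 ± 0.144 FPKM in Control (SD, n = 3 each; edgeR adjusted p = 0.0269). The Vcan call was lost without MCH replicate 2 or 3 or Control replicate 2 or 3 (highest adjusted p = 0.0867), and that of Hapln4 without those or Control replicate 1 (highest adjusted p = 0.108). Cd44, the hyaluronan receptor, had 2222, 2875 and 1041 counts in MCH replicates 1, 2 and 3, against 2326, 2705 and 2566 in Control replicates 1, 2 and 3, and Hmmr, another receptor, was at 8.53 ± 0.860 FPKM in MCH and 8.12 ± 0.450 FPKM in Control. Neither passed the test.

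Aggrecan carries chondroitin sulfate chains. Of 31 genes for the synthesis and sulfation of chondroitin and keratan sulfate, 27 were tested, 4 fell and 1 rose, with a median log2 fold change of -0.01. Csgalnact1, which starts chondroitin chains, was at 1.29 ± 0.0667 FPKM in MCH and 2.53 ± 0.145 FPKM in Control (SD, n = 3 each; log2 fold change -0.96 ± 0.11, edgeR adjusted p = 0.00312), a call kept in all 6 fits with 1 library left out. Chst1, a keratan sulfate sulfotransferase, fell by 0.56 ± 0.09 on the log2 scale (edgeR adjusted p = 0.0109), a call lost without MCH replicate 3 or Control replicate 3 (adjusted p = 0.0533 without the MCH library and 0.0545 without the Control library). The chondroitin sulfotransferases Chst11 (-0.41 ± 0.09, edgeR adjusted p = 0.0298) and Ust (-0.46 ± 0.11, edgeR adjusted p = 0.0456) fell, and Chst7 rose (0.78 ± 0.19, edgeR adjusted p = 0.0412). The Chst11 call was lost without MCH replicate 2 or 3 or Control replicate 2 or 3 (highest adjusted p = 0.121), and those of Ust and Chst7 whichever library was left out (highest adjusted p = 0.151 for Ust and 0.141 for Chst7). Chst7 was also not called by DESeq2 (adjusted p = 0.0852), nor Ust by limma on log2(FPKM + 1) (0.0524) or log2(FPKM + 0.1) (0.0509), with a non-robust fit (0.0503) or without a filter on low counts (0.0557). With the replicate number as a block, neither Chst7 nor Ust was called (edgeR adjusted p = 0.16 for Chst7 and 0.171 for Ust). Ugdh, which makes a sugar nucleotide for chondroitin chains, was at 44.2 ± 3.02 FPKM in MCH and 40.8 ± 1.93 FPKM in Control. The sulfotransferase Chst12 was at 20.9 ± 0.927 FPKM in MCH and 22.4 ± 1.18 FPKM in Control, and neither gene passed.

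Among 14 genes for aggrecanases, other proteases of cartilage and their inhibitors, 13 were tested, 5 fell and 2 rose (median log2 fold change -0.14). Adamts5, the main aggrecan-cutting enzyme of mouse cartilage, was at 5.82, 6.37 and 7.51 FPKM in MCH replicates 1, 2 and 3, against 3.10, 3.85 and 2.93 FPKM in Control replicates 1, 2 and 3. Its log2 fold change was 1.01 ± 0.14 (edgeR adjusted p = 0.00595), and all MCH libraries were above all Control libraries. Adamts4, the other main aggrecanase, moved in the opposite direction, at 2.80 ± 0.495 FPKM in MCH and 4.61 ± 0.556 FPKM in Control (SD, n = 3 each; log2 fold change -0.71 ± 0.14, edgeR adjusted p = 0.0240). Adamts7, which cuts COMP, was at 2.30 ± 0.0954 FPKM in MCH and 4.55 ± 0.206 FPKM in Control (SD, n = 3 each; log2 fold change -0.97 ± 0.08, edgeR adjusted p = 0.000656). The metalloproteinases Mmp3 (-0.51 ± 0.09, edgeR adjusted p = 0.0152) and Mmp13, the collagenase of hypertrophic cartilage and bone (-1.36 ± 0.24, edgeR adjusted p = 0.0164), also fell. Htra1, a serine protease of the matrix, rose by 0.38 ± 0.06 (edgeR adjusted p = 0.0101). The calls of Adamts5 and Adamts7 were kept in all 6 fits with 1 library left out. Others were lost without MCH replicate 3: Htra1 (adjusted p = 0.0574), Mmp3 (0.0705), Mmp13 (0.0731) and Adamts4 (0.0841). Mmp3 was also lost without Control replicate 2 (0.0629) or 3 (0.0566), Mmp13 without MCH replicate 2 (0.0592) or Control replicate 2 (0.0641), and Adamts4 without MCH replicate 2 (0.0781) or without Control replicate 2 (0.0840) or 3 (0.0975). The inhibitors Timp1 (520 ± 63.5 FPKM in MCH, 440 ± 52.5 FPKM in Control) and Timp2 (194 ± 6.43 FPKM in MCH, 208 ± 1.25 FPKM in Control) did not pass.

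Comp itself did not pass the filter on low counts, and of its 6 listed relatives and partners, all tested, 4 fell and 0 rose (median log2 fold change -0.57; 0 rose with DESeq2 or at an unadjusted p under 0.05). Thbs2, a thrombospondin of connective tissue, was at 144 ± 14.5 FPKM in MCH and 250 ± 18.1 FPKM in Control (SD, n = 3 each; log2 fold change -0.78 ± 0.08, edgeR adjusted p = 0.00252). Thbs4 (-0.99 ± 0.15, edgeR adjusted p = 0.00884) and Thbs3 (-0.71 ± 0.12, edgeR adjusted p = 0.0158), which form pentamers as COMP does, fell at far lower levels, 1.40 ± 0.186 FPKM in MCH and 2.81 ± 0.224 FPKM in Control for Thbs4 (SD, n = 3 each). Fn1, fibronectin, which binds COMP, fell by 0.43 ± 0.09 (edgeR adjusted p = 0.0318). The calls of Thbs2 and Thbs4 were kept in all 6 fits with 1 library left out. With the replicate number as a block, Thbs4 was no longer called (edgeR adjusted p = 0.0504). The Thbs3 call was lost without MCH replicate 3 or Control replicate 2 or 3 (highest adjusted p = 0.0746). That of Fn1 was lost without MCH replicate 2 or 3 or Control replicate 2 or 3 (highest adjusted p = 0.134). Thbs1 (209 ± 30.2 FPKM in MCH, 248 ± 24.9 FPKM in Control) and Grn, progranulin (26.3 ± 3.99 FPKM in MCH, 30.7 ± 2.88 FPKM in Control), did not pass.

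**Figure D4:**
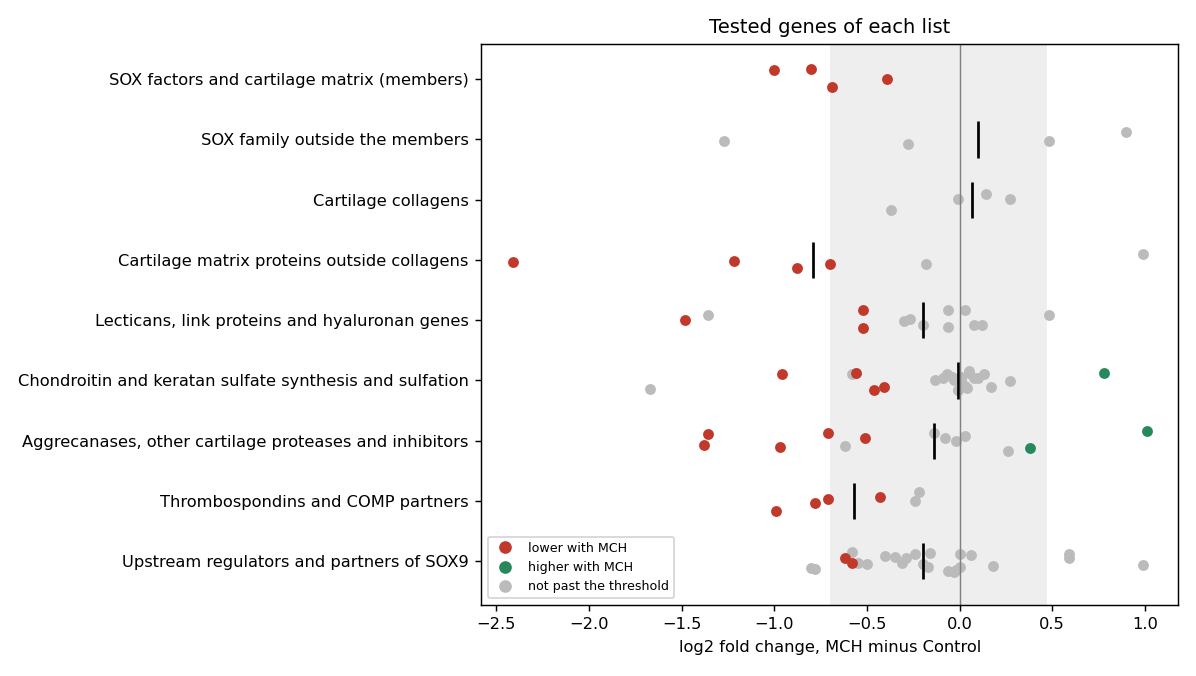
Log2 fold change of MCH minus Control for every tested gene of the SOX and matrix set and of each list, with black ticks at list medians and a grey band between the 5% and 95% quantiles of all tested genes (-0.69 to 0.47). Mgp lies farthest to the left at -2.41, and all 6 thrombospondin and partner genes lie below 0.

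Markers of some other cell types also differed between the groups. The sums given are of raw counts, not scaled to library depth. Summed counts of 5 of 6 tendon cell markers with a row were 2424 to 2550 in MCH and 3480 to 4229 in Control. The 3 that fell were Egr1, and Fmod and Thbs4 of the lists above. Egr1 held most of these counts (2095 to 2231 in MCH, 2768 to 3475 in Control). Scx (edgeR adjusted p = 0.362) and Mkx (edgeR adjusted p = 0.057) did not pass, and Tnmd had no row. Summed counts over 6 of 9 osteoblast markers were 74143 to 78350 in MCH and 99946 to 116074 in Control, with Col1a1, Spp1 and Alpl lower. Col1a1 held most of them (64369 to 68614 in MCH, 81393 to 95948 in Control). Runx2 did not pass (edgeR adjusted p = 0.0822), Sp7 had 3 to 4 counts in both groups, and Bglap 0 to 2 in MCH and 2 to 3 in Control. Bglap2, Ibsp and Dmp1 had no row. Over 7 of 7 marrow stroma markers the sums were 6781 to 7510 in MCH and 8138 to 10838 in Control. Pdgfra and Pdgfrb were lower, and Cxcl12, Lepr, Kitl, Ebf3 and Vcam1 did not pass. Over 6 of 6 adipocyte markers the sums were 809 to 1112 in MCH and 1293 to 1437 in Control, with 1 lower. Over 8 of 8 smooth muscle and pericyte markers they were 29183 to 33587 in MCH and 25561 to 27369 in Control, with Tagln alone called, as higher. Acta2 held most of these counts (25125 to 28904 in MCH, 22039 to 23537 in Control) and did not pass (edgeR adjusted p = 0.0768). Over 7 of 8 synovial lining markers the sums were 777 to 954 in MCH and 724 to 942 in Control, over 5 of 6 endothelial markers 65 to 103 in MCH and 82 to 127 in Control, and over 4 of 5 hypertrophic chondrocyte markers 47 to 52 in MCH and 89 to 145 in Control, where Mmp13 alone was called. The adipocyte marker called was Plin4 (log2 fold change -2.24 ± 0.24, edgeR adjusted p = 0.00277), while Pparg did not pass (-0.14 ± 0.19). Fabp4 held most of the adipocyte counts (735 to 1036 in MCH, 1119 to 1215 in Control) and did not pass (edgeR adjusted p = 0.112). The remaining adipocyte markers were at or near 0 in both groups. Adipoq had 0 to 3 counts in MCH and 0 to 2 in Control, Plin1 0 in MCH and 1 to 2 in Control, and Cidec 1 to 2 in MCH and 0 to 4 in Control. The part of these cell types in the changes of Sox9, Sox5, Acan and Prg4 was not tested.

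For each tested gene of the set, the 3 genes with the most similar pattern over the 6 libraries were taken, by Pearson's r of log2 CPM among 10696 genes. For Sox9 they were 4833418N02Rik (r = 0.998), Hip1 (0.997) and Socs5 (0.997), and for Sox5 Gabbr1 (0.997), Galc (0.995) and Ccndbp1 (0.993). For Acan they were Stag3 (0.997), Rbpms (0.992) and Tpcn1 (0.992), and for Prg4 Hoxb5 (0.999), Zfyve1 (0.998) and Klf13 (0.997). The 6 points share the split into 2 groups, and r above 0.9 was reached by 6.86% of genes with Sox9, 5.22% with Sox5, 5.82% with Acan and 7.16% with Prg4.

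In the authors' deposited table, the q-value was 0.00963 for Prg4, 0.0352 for Sox5, 0.0895 for Acan, 0.343 for Comp, 0.374 for Sox9 and 0.954 for Sox6. Prg4 was the only one of the 6 that the authors' deposited table marks as changed, with the mark UP, which in that table stands for a higher mean in Control. The order of the genes by q-value in the authors' deposited table differs from that by adjusted p here in the place of Sox9, which was called here and had a q of 0.374 there.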

How the data were processed

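Polyadenylated RNA of 3 MCH and 3 Control samples was sequenced (VAHTS library kit), per the labels' protocols. Whole-number counts and FPKM for each gene and library were deposited, per the file headers, with the authors' own p-value and q-value per gene. Coordinates are those of GRCm38 (mm10), a build the submitters' processing notes name. No source used here gives the aligner, counter, annotation release, strand setting or test that the authors used. Columns with MCH in their names are the MCH group. The remaining 3 name no group and were assigned to Control, since the series has only these groups, and every direction rests on this. Libraries within a group differed beyond counting noise, with a chi-square per degree of freedom of 14.9 to 25.3.

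The main test was edgeR 4.0.16 (R 4.3.3) with TMM scaling, filterByExpr (minimum count 10, minimum total 15) and a robust quasi-likelihood fit on group. This kept 13662 genes, left out 5691, and gave a common biological coefficient of variation of 0.174. SE was derived from the fit's unshrunken log2 coefficient and its F statistic (their ratio after taking the root of F). CPM values are TMM scaled. Alternatives used DESeq2 1.42.0 and limma 3.58.1, other scalings and filters, log2(FPKM + 1) and log2(FPKM + 0.1), a gene length trend removed, the replicate number as a block, and each library left out. The fit was tested on simulated counts. The smallest permutation p was 0.1, and counting intervals are exact at 95%. Symbols came from gene IDs through GENCODE M21 (99.5% matched). The 7 genes and all lists were chosen with earlier results of these data known. From each list the text names called genes if 5 or fewer, else the 4 with the smallest p in each direction, and the 2 most abundant others; the 3 most similar genes had at least 5 CPM.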

Additional observations from a re-analysis of the deposited data

How the results depend on the processing

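Sox9, Sox5, Acan and Prg4 were lower with MCH in every setting run, including each fit with 1 library left out, but their calls at an adjusted p under 0.05 depended on the libraries and on 2 settings. Called lower were 4 of the 4 genes with limma-voom or DESeq2, a stricter filter on low counts or none, upper-quartile or RLE scaling, a non-robust fit, the gene length trend removed and limma on log2(FPKM + 1). Limma on log2(FPKM + 0.1) called 2 of 4, with Sox5 at -0.651 and Acan at -0.649 no longer called. With 1 library left out, 0 to 4 were called, with log2 fold changes of -0.448 to -0.344 for Sox9, -0.874 to -0.694 for Sox5, -0.771 to -0.554 for Acan and -1.101 to -0.839 for Prg4. Same-numbered libraries did not deviate together over all genes (r = -0.161, -0.039 and -0.014). With 3 libraries per group, these values cannot show whether the numbers pair libraries, and the labels do not say so. With the replicate number as a block, 0 of the 4 genes were called, at -0.388 for Sox9, -0.797 for Sox5, -0.697 for Acan and -1.014 for Prg4. That fit called 28 genes higher and 151 lower over all genes. Of the named list genes kept in all 6 fits with 1 library left out, the block fit lost Matn2 (edgeR adjusted p = 0.0734), Foxc1 (0.0629) and Thbs4 (0.0504). It also lost Vcan, Hapln4, Chst1, Chst7, Chst11, Ust, Htra1, Mmp3, Mmp13, Adamts4, Thbs3 and Fn1. The gene length trend removed gave 920 genes higher in place of 497, and leaving out 1 library gave 65 to 722 higher and 256 to 867 lower. Some genes that were not called changed sign between settings. Bmpr1a was at 0.001 with the replicate block, at 0.052 with the length trend removed and at -0.078 to 0.101 with 1 library left out. Col27a1 was at 0.130 with the length trend removed and at -0.049 to 0.057 with 1 library left out, where Zfp219 ran from -0.137 to 0.040, Cd44 from -0.598 to 0.020 and Sox12 from -0.005 to 0.820. Of 24 named list genes called, 12 were called in all 6 fits with 1 library left out, 10 in 1 to 5 and 2 in none. Why these calls changed was not tested. Depth limits Sox6 and Comp, which had 12 counts or fewer per library and did not pass the filter; with no filter neither was called (adjusted p = 0.834 for Sox6 and 0.280 for Comp).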
